A study of Mus musculus with 653 samples.

Results

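The 9 genes described here, *Pf4*, *Ppbp*, *Vwf*, *Itga2b*, *Gp1ba*, *Gp1bb*, *Gp9*, *Mpig6b* and *Tubb1*, are known from megakaryocytes and platelets. They were chosen by name from the 54195 genes of the count table, and a cell was counted when it held more than 10 reads on at least 3 of the 9. Among the sorted embryonic liver cells of the series, 23 did so and 630 did not (3.52%, exact 95% interval 2.25 to 5.24%). Of the 23 cells, 16 held at least 5 of the genes, 0 held exactly 4, and 7 held exactly 3. The 16 cells are called rich cells here and the other 7 are called 3-gene cells. This split uses the same reads as the rule, so it is a description and does not show 2 separate kinds of cell. A further 30 cells held 2 of the genes over 10 reads, 89 cells held 1, and 511 cells held none.

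Megakaryocytes are large, polyploid blood cells that shed platelets into the circulation, and in the embryo they arise in the yolk sac and then in the fetal liver, where blood formation takes place next to the hepatoblasts. Their genes encode receptors that tether platelets to damaged vessels, proteins stored in granules, and a tubulin of the platelet rim. The transcription factor *Gata1* works in megakaryocytes and red cells alike, whereas *Klf1* drives the red cell programme and *Fli1* the megakaryocyte programme.

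Livers were taken at E10.5 and at E13.5 from embryos fathered by Lgr5-EGFP-IRES-creERT2 males, kept on C57BL/6, and born to MF1 mothers, so the crossed background is common to all groups. GFP in this line is made from the Lgr5 locus. All groups were sorted as Liv2+, an antigen of hepatoblasts, and as CD31-/CD45- to leave out endothelial and blood cells, and the Lgr5-GFP+ groups were in addition positive for GFP. Of the cells, 414 were taken at E10.5 and 239 at E13.5, and 362 were sorted without regard to GFP (bulk) and 291 as Lgr5-GFP+. The smallest of the 4 groups was E13.5 Lgr5-GFP+, with 80 cells (12.3% of all). Every cell was prepared with the Smart-seq2 protocol and deposited as 1 sample. The labels name no animal or litter, so each group counts as 1 sample and no p-value is given. The 23 cells are numbered 1 to 23, as in the heat map, with the rich cells first.

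The reads assigned to genes numbered 463347 to 2279700 in a cell, with a median of 1192740. Levels are given as RPM, the reads on a gene per 1000000 reads on genes. No molecular identifiers were used, so exact intervals here cover counting error only. The cells were spread over 5 library pools, each of which held cells of all 4 groups. Each cell carries a pair of index sequences, and 230 of the 365 pairs were used in more than 1 pool. The rich cells had 524954 to 1767840 reads and 6143 to 7512 detected genes. Cells marked by other lineages were defined by more than 10 reads on at least 3 genes of a marker list.

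The promoters of 4 of the genes are shown, those of *Pf4*, the most read member, and of the 3 members that hold the letters GATAAG, to show what they do and do not have in common. They are the 250 bases before the start of the gene in RefSeq (GRCm38.p6), read 5′ to 3′ on the strand of the gene. Capitals mark the letters GATAAG and AGGAAG on either strand, which GATA factors and ETS factors such as *Fli1* are known to bind. *Pf4* lies at chr5:90772185-90772434 on the plus strand, *Gp1ba* at chr11:70638872-70639121 on the plus strand, *Gp9* at chr6:87777820-87778069 on the plus strand and *Mpig6b* at chr17:35066185-35066434 on the minus strand.
*Pf4*: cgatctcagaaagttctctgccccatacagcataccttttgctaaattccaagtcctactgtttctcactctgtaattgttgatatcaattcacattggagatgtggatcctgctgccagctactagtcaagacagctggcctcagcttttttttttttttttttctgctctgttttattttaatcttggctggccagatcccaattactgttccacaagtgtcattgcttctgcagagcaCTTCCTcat
*Gp1ba*: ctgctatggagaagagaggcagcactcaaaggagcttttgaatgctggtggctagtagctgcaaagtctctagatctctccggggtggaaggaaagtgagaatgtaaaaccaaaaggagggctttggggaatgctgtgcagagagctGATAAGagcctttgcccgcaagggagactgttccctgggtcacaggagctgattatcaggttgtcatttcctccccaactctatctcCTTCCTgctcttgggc
*Gp9*: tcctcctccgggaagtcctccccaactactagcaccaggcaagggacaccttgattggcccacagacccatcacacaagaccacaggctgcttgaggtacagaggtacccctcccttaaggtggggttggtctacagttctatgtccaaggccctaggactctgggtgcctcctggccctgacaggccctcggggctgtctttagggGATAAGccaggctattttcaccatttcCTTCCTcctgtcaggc
*Mpig6b*: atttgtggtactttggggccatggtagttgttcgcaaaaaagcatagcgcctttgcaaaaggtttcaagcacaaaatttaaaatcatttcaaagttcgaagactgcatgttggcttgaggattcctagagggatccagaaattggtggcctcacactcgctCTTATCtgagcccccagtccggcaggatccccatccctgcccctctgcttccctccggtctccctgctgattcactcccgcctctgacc
GATAAG was found in 3 of the 8 promoters that the table held, those of *Gp1ba*, *Gp9* and *Mpig6b*, against 6.55% of 32851 mouse promoters of the same length. AGGAAG was found in 5 of the 8, those of *Pf4*, *Itga2b*, *Gp1ba*, *Gp9* and *Tubb1*, against 29.5% of all promoters. TGTGGT, letters bound by RUNX factors, was found in 2 of the 8, those of *Gp9* and *Mpig6b*, against 14.05%. Only *Gp9* held all 3, and the windows of *Ppbp* and *Gp1bb* held none of them. Most of the *Itga2b* window (72% of its bases) and all of the *Gp1bb* window lie in exons. These are matches of letters and not measured sites.

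*Pf4* and *Ppbp* encode chemokines that platelets store in their alpha granules, and both genes lie side by side on the plus strand of chromosome 5 (*Ppbp* 90768518 to 90770063, *Pf4* 90772435 to 90773383, GRCm38). *Pf4* was the most read of the 9 genes, with 412756 reads over all cells, of which 94.5% fell in the 16 rich cells. In the rich cells it ranged from 0 to 72027 reads with a median of 22366.5, and 15 of 16 cells had more than 10. The exception was cell 8 (E10.5 bulk), which had 0 *Pf4* reads beside 882 reads of *Itga2b* and 462 of *Gp9*. *Ppbp* had 100813 reads over all cells and 98.98% of them fell in the rich cells, although only 5 of the 16 rich cells held more than 10 reads. Its values in those 5 cells are set out with the sorts.

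*Vwf* encodes von Willebrand factor, the large plasma and granule protein to which platelets adhere. It lies on chromosome 6 (125546774 to 125686679, plus strand). It ranged from 1 to 1016 reads in the rich cells, with a median of 392.5, and passed 10 reads in 15 of 16. Only 49.3% of all 14482 *Vwf* reads fell in these cells, the lowest share of the 9 genes, and the cell with the most *Vwf* reads in the whole table, 2249, was not among the 23.

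*Itga2b* encodes the alpha chain of the platelet fibrinogen receptor (chromosome 11, 102453297 to 102470122, minus strand). It stood at 104.5 to 2888 RPM in the rich cells with a median of 1241, so every rich cell passed 10 reads. Its partner, the beta chain gene *Itgb3*, was also over 10 reads in all 16, at 45 to 6016 reads with a median of 747, and in 8 of the 630 cells outside the 23.

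*Gp1ba*, *Gp1bb* and *Gp9* encode chains of the receptor for von Willebrand factor. *Gp9* (chromosome 6, 87778072 to 87779768, plus strand) passed 10 reads in all 16 rich cells, at 355 to 5142 reads with a median of 1572. *Gp1ba* (chromosome 11, 70639122 to 70642036, plus strand) ranged from 10 to 2819 reads with a median of 414.5 and passed in 15. *Gp1bb* (chromosome 16, 18620317 to 18622403, minus strand) had only 0 to 79 reads, with a median of 22.5, and passed in 11. Of the 2087 exon bases of *Gp1bb*, 92.9% are shared with exons of *Sept5* or *Gm49601* on the same strand, so its reads are uncertain and its level cannot be set against that of the other chains. *Gp5*, the remaining chain of this receptor, passed 10 reads in 15 of the 16 cells, with a median of 564 reads.

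*Mpig6b*, an inhibitory receptor of the platelet surface (chromosome 17, 35062693 to 35066184, minus strand), and *Tubb1*, the beta-tubulin of the platelet rim (chromosome 2, 174450695 to 174457882, plus strand), passed 10 reads in the fewest cells outside the 23. Some reads were more widespread, as 24 of the 630 other cells had at least 1 *Mpig6b* read and 22 a *Tubb1* read, against 3 with a *Gp1bb* read. *Mpig6b* had 0 to 941 reads in the rich cells, with a median level of 206.3 RPM, and passed 10 reads in 11 of them, in 1 3-gene cell and in 0 of the 630 other cells, where the highest value was 10 reads. *Tubb1* had 0 to 1277 reads in the rich cells, with a median of 414.5, and passed in 15 of them and in 1 other cell, which had 31 reads. Of all *Tubb1* reads in the table, 99.2% fell in the 16 cells. The rich cells without *Tubb1* and *Mpig6b* were not the same set, since 4 cells had 0 *Mpig6b* reads and 1 of those, cell 13 (E13.5 bulk), also had 0 *Tubb1* reads. The heat map shows these values for each cell, beside those of the transcription factors and of markers of other lineages.

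**Figure D1:**
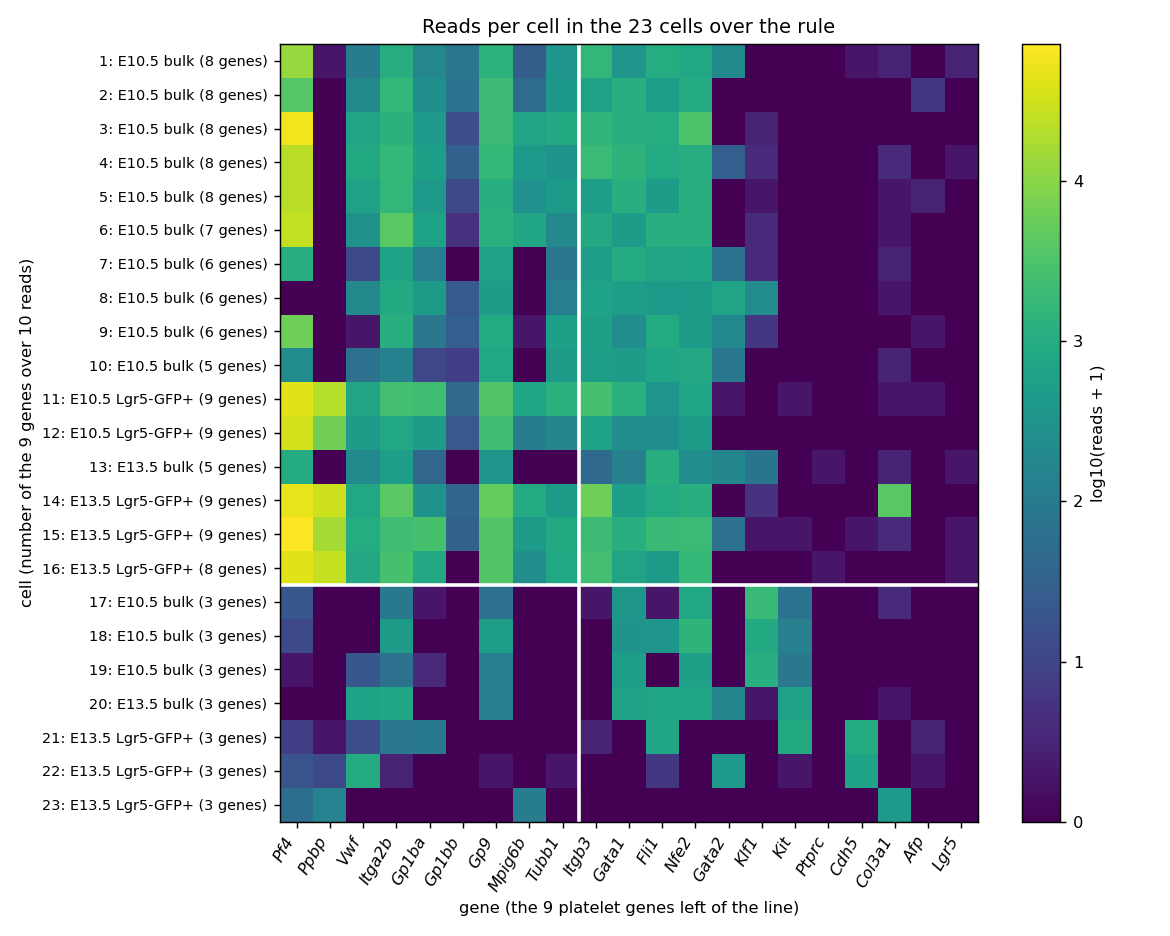
Reads of the 9 genes (left of the white vertical line) and of 12 other genes in each of the 23 cells, coloured by log10(reads + 1). Rows are cells with their number of the 9 genes over 10 reads, with the 16 rich cells above the white horizontal line and the 7 3-gene cells under it. *Ppbp* is bright in the 5 Lgr5-GFP+ rich cells and dark in the 11 bulk rich cells, and *Klf1* is bright in 3 of the 3-gene cells.

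Together the 9 genes took 0.131 to 8.42% of the reads of a rich cell, with a median of 1.94%. Per kilobase of exon, and summed over the rich cells, the order of levels was *Pf4* (25518 RPM per kilobase), *Ppbp* (4345), *Gp9* (1663), *Tubb1* (248), *Itga2b* (237), *Gp1ba* (173.7), *Mpig6b* (91.9) and *Vwf* (20.96), with *Gp1bb* left out for its shared exons. *Pf4* was above *Ppbp* in 15 of the 16 cells, and *Gp9* was above *Tubb1* in 16 of 16. *Ppbp* was above *Gp9* in only 5 of 16, so its place in the order rests on those cells. *Tubb1* was above *Itga2b* in 8 of 16 and these neighbours could not be ordered. The remaining neighbours kept their order in 12 or 13 of 16 cells.

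The levels of the members also went together among the rich cells, although genes of 1 cell share its library and depth, and the values are a description over 16 cells. In RPM, *Pf4* and *Gp9* had a Spearman rho of 0.85, *Itga2b* and *Mpig6b* 0.84, and *Vwf* and *Gp1ba* 0.81. The rho of *Gp1bb* with the other genes was 0.12 to 0.51, and 0.12 was the lowest of the list. The lowest summed levels were those of 5 bulk cells, cells 7 to 10 of E10.5 and cell 13 of E13.5, in which 5 or 6 of the genes passed 10 reads and the 9 genes took at most 0.541% of the reads. These 5 cells all expressed *Gata2*, a factor of blood progenitors and early megakaryocytes, at 53.4 to 501.6 RPM, whereas 8 of the other 11 rich cells had 0 or 1 *Gata2* reads and the remaining 3 had 19.6 to 130.2 RPM. Over the 16 cells the summed level of the 9 genes had a rho of -0.70 with *Gata2*, 0.70 with *Nfe2*, a factor of platelet release, and -0.06 with *Fli1*. These values pool both sorts. The 9 genes took 5.97 to 8.42% of the reads in Lgr5-GFP+ rich cells and 0.131 to 4.37% in bulk rich cells. The part of the sort in these values was not tested.

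*Gata1* was high in every rich cell, at 146.7 to 1079 RPM with a median of 528. *Klf1* had at most 5 reads in 14 of the 16, 75 reads in cell 13 (E13.5 bulk) and 217 reads in cell 8 (E10.5 bulk). Thus 14 of 16 rich cells, and 15 of all 23 cells, held more than 10 *Gata1* reads and at most 10 *Klf1* reads. The same state was found in 8 of the 630 other cells, whereas 19.8% of them held both factors over 10 reads, 36 held *Klf1* alone and 461 held neither. *Gata1* stood at 557 RPM in the rich cells and at 109.4 RPM over all 630 other cells. *Klf1* stood at 14.8 RPM in the rich cells (exact Poisson 95% interval 13.2 to 16.5) and at 334 RPM over all 630 other cells. Those that held both factors were chosen by their reads of both genes. Their levels of 572 RPM of *Gata1* and 1428 RPM of *Klf1* are therefore no comparison.

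**Figure D2:**
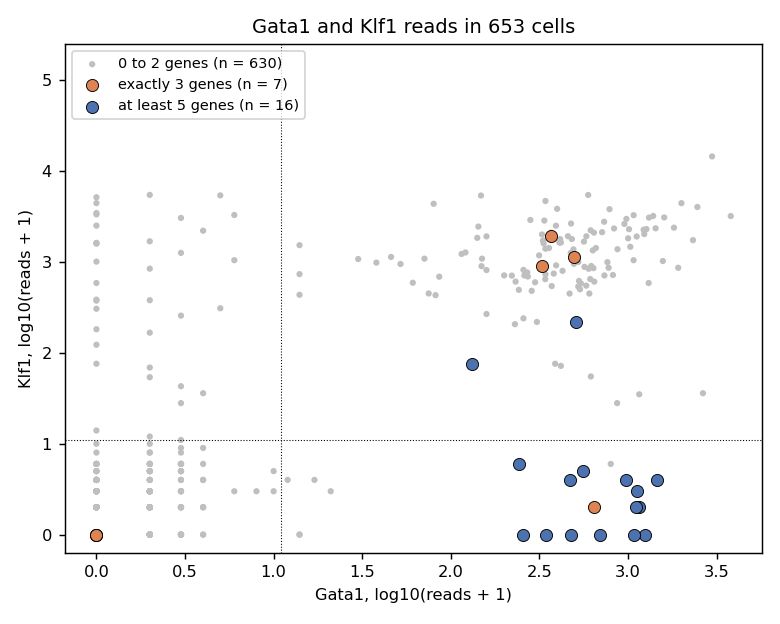
*Gata1* reads (horizontal) and *Klf1* reads (vertical) of each cell, as log10(reads + 1), with dotted lines at the limit of 10 reads. Blue points are the 16 rich cells, orange points the 7 3-gene cells, of which 3 lie on top of each other at 0, and grey points the 630 other cells. Of the blue points, 14 lie in the lower right field, and 2 lie above the line for *Klf1*.

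Of the 16 transcription factors of the megakaryocyte and red cell list, 6 passed 10 reads in all 16 rich cells. They were *Gata1*, *Fli1* (235 to 1935 reads), *Runx1* (20 to 1938), *Nfe2* (235 to 3145), *Etv6* (47 to 528) and *Mef2c* (345 to 2095). *Tal1* and *Meis1* passed in 15 and *Gfi1b* in 13. *Gata2* passed in 8, *Ldb1*, a cofactor of *Gata1*, in 5, and *Lmo2* in 1 with 11 reads. *Erg*, an ETS factor of blood stem cells and endothelium, had at most 1 read in each of them. *Zfpm1* and *Lyl1* are listed at 0 in every cell of the table, which says nothing on these genes.

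The 3-gene cells were of several kinds. Cells 17, 18 and 19 (E10.5 bulk) had 1942, 903 and 1130 *Klf1* reads and 54.8 to 142.9 RPM of *Kit*, the stem cell factor receptor, and passed with *Itga2b* and *Gp9* together with 11 to 20 reads of a further gene. Cell 20 (E13.5 bulk) had 639 *Gata1* reads, 1 *Klf1* read, 589 *Kit* reads, 3197 *Runx1* reads, 706 *Itga2b* reads and 0 *Pf4* reads. All 16 rich cells, by contrast, had at most 1 *Kit* read.

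The other 3 came from the E13.5 Lgr5-GFP+ group and had 0 *Gata1* reads. Cell 21 had 959 reads of *Pecam1* and 972 of *Cdh5*, genes of endothelial junctions, with *Itga2b* at 82, *Gp1ba* at 91 and *Vwf* at 14 reads. Cell 22 had 967 *Vwf* reads with 669 *Cdh5* reads and passed by 18 *Pf4* and 11 *Ppbp* reads. Cell 23 had 432 *Col3a1* reads with *Pf4* at 89.6, *Ppbp* at 227 and *Mpig6b* at 179.1 RPM. Cells 17, 18, 21 and 22 share an index of the same pool with a Pf4-rich cell, a point taken up with the low reads.

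Both sorts of rich cells differed in *Ppbp*. In the 5 Lgr5-GFP+ rich cells *Ppbp* had 20432 and 6470 reads (E10.5) and 30263, 15966 and 26656 reads (E13.5). In the 11 bulk rich cells it had 0 reads in 10 and 1 read in the remaining cell. The ranges did not overlap, at 9622 to 21711 RPM against 0 to 0.638, and the gap was present at E10.5, where 2 Lgr5-GFP+ cells and 10 bulk cells can be set side by side, as well as at E13.5 with 3 cells against 1. The Lgr5-GFP+ cells lay in pools 2 to 5 and the bulk cells in pools 3 to 5. With 0 of 11 bulk cells over 10 *Ppbp* reads, a share of up to 27.3% is still allowed by counting error.

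*Pf4* itself did not split the sorts in this way. It stood at 33528 to 63668 RPM in the Lgr5-GFP+ rich cells and at 0 to 39354 in the bulk rich cells, and cell 3 (E10.5 bulk), with 56622 *Pf4* reads, had 0 reads of the neighbouring *Ppbp* gene. *Gp9* was the only other member whose ranges did not overlap, at 2156 to 4456 RPM against 341 to 1562. Over the 5269 genes compared between the sorts, 0.399% were higher in this way in Lgr5-GFP+ cells and 0.38% lower. The ranges of the other 7 members overlapped. The 9 genes together took 5.97 to 8.42% of the reads of the Lgr5-GFP+ rich cells and 0.131 to 4.37% of those of the bulk rich cells.

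**Figure D3:**
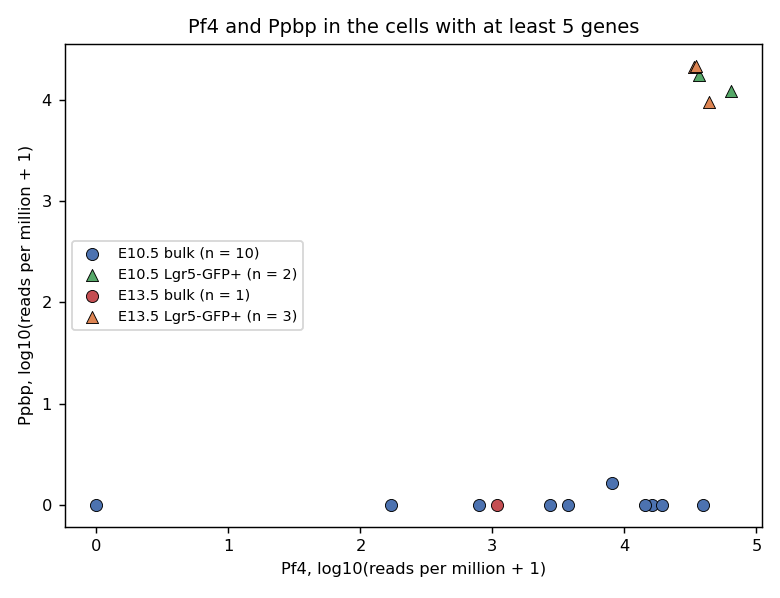
*Pf4* (horizontal) and *Ppbp* (vertical) in the 16 rich cells, both as log10(RPM + 1), with triangles for Lgr5-GFP+ cells and circles for bulk cells, coloured by stage. The 5 triangles of both stages lie together at the top right, and the 11 circles lie along the bottom, from 0 to 39354 RPM of *Pf4*.

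Among 5269 genes with more than 10 reads in at least 50% of the rich cells of either sort, 21 (0.399%) were higher in all 5 Lgr5-GFP+ cells than in all 11 bulk cells and 20 (0.38%) were lower in all of them. *Ppbp* had the widest gap. Other genes of the first kind, named after their values were seen, were *Il21r* (178.7 RPM against 0), the platelet surface receptor *Cd226* (442 against 19.1), the muscle and platelet proteins *Cald1* (823 against 47.5) and *Tpm2* (689 against 73.6), and *Alox12*, the platelet lipoxygenase (1531 against 230). Genes of the second kind included *Dkc1*, of the ribosomal RNA modifying complex (0.834 against 297), and *Srm*, of polyamine synthesis (51.9 against 772). The transcription factor gene *Myc* was over 10 reads in 7 of 11 bulk and 0 of 5 Lgr5-GFP+ rich cells, although these ranges overlapped. A gene could enter through 1 sort alone, as *Ppbp* and *Il21r* did, so the counts of 21 and 20 genes depend in part on that filter. The sorts also differed in stage, since 10 of the 11 bulk cells were of E10.5 and 3 of the 5 Lgr5-GFP+ cells of E13.5. For genes other than *Ppbp* the part of stage in these differences was not tested. Lgr5 itself had 0 or 1 reads in the 5 Lgr5-GFP+ rich cells and 0 to 2 in the bulk rich cells.

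At E10.5 the 23 cells included 13 bulk cells, which is 6.40% of that group (exact 95% interval 3.45 to 10.7%), and 2 Lgr5-GFP+ cells (0.948%, 0.115 to 3.38%). At E13.5 the order was the other way, with 2 cells of the bulk sort (1.26%, 0.153 to 4.47%) and 6 of 80 with GFP (7.5%, 2.80 to 15.6%). Counting rich cells alone gave 10 bulk (4.93%, 2.39 to 8.87%) and 2 Lgr5-GFP+ cells at E10.5 and 1 bulk (0.629%, 0.0159 to 3.45%) and 3 Lgr5-GFP+ cells at E13.5 (3.75%, 0.780 to 10.6%). Cells are not replicates of a group, so no difference between sorts was read from these intervals. Where cells are picked by a sort, a share of sorted cells is not a share of the liver.

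The share of cells also differed between pools. Of the 23 cells, 0 lay in pool 1 (exact 95% interval 0 to 2.72% of that pool) and 1 in pool 2 (0.671%). Pool 3 held 11 (8.27%, exact 95% interval 4.2 to 14.3%), pool 4 held 7 (5.34%) and pool 5 held 4 (3.77%). In the bulk sort of E10.5 the counts were 0 of 42, 0 of 41, 7 of 41, 4 of 42 and 2 of 37 in pools 1 to 5, and in the GFP sort of that stage 0 of 45, 0 of 47, 1 of 40, 0 of 41 and 1 of 38. In the GFP sort of E13.5 they were 0 of 13, 1 of 27, 3 of 19, 2 of 14 and 0 of 7. Without pool 3 the number of cells fell from 23 to 12, the E10.5 bulk share from 6.40 to 3.70% and the E13.5 Lgr5-GFP+ share from 7.5 to 4.92%. Without pools 1 and 2 the share at E10.5 in the bulk sort was 10.8%. The part of the pools in these shares was not tested.

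**Figure D4:**
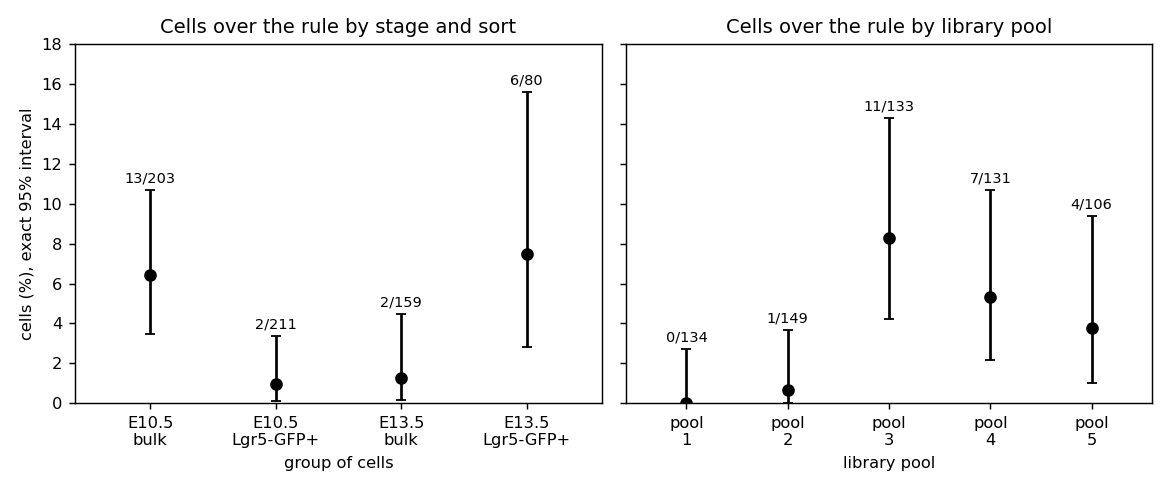
Share of cells with more than 10 reads on at least 3 of the 9 genes, in percent, by stage and sort (left) and by library pool (right), with the counts above each point and bars for exact 95% intervals. E10.5 bulk (6.40%) and E13.5 Lgr5-GFP+ (7.5%) stand higher than the other groups, and pools 1 and 2 stand lower than pool 3.

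The levels of the 23 cells were set against 322 erythroid-marked cells outside them, for the 4828 genes with 3 or more reads in 50% or more of the cells of either class. Of these genes, 252 (5.22%) were at least 4 times higher in the 23 cells and 54 (1.12%) at least 4 times lower, with a median log2 ratio of -0.09. The 23 include the 3-gene cells, which were of several kinds, and *Klf1* stood at 148.6 RPM in the 23 and 14.8 in the rich cells. With the rich cells alone, an alternative chosen after the data were seen, 356 of 5423 genes (6.56%) were higher. Of the 252 higher genes, 25 passed the filter in the erythroid-marked cells themselves, and the others passed through the 23 cells alone. The erythroid list marks many cells by genes of haem synthesis. Of the 322 cells, 39.8% had more than 10 *Gata1* reads and 50% more than 10 *Klf1* reads. The class also held 220 RPM of *Afp* and 346 RPM of *Col3a1*, so it is not of red cells alone. Cells outside the 23 with more than 10 reads of both *Gata1* and *Klf1* were therefore used as a narrower class. Against it 376 of 5070 genes (7.42%) were at least 4 times higher and 2.54% lower, with a median of -0.16. Of the 9 members, 8 could be compared and all 8 were higher in both comparisons, which follows from how the cells were chosen.

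Further platelet receptors and their signalling partners were present beside the members. Of the 20 on the list, 14 were over 10 reads in at least 50% of the rich cells and 18 in any rich cell. The 13 that could be compared with erythroid-marked cells all passed the filter on low values through the 23 cells alone, so no count of higher genes is given. The highest levels were those of the integrin activator *Fermt3* (1985 RPM in the 23 cells and 203.6 in erythroid-marked cells), the tetraspanin *Cd9* (1368 and 48.4), the granule receptor *Treml1* (965 and 4.58) and *Itgb3* (817 and 1.64). The collagen receptor *Gp6* passed in only 7 of 16 rich cells, and *Selp*, a receptor of activated platelets, in 1. *F2rl2* and *P2ry12* are listed at 0 in every cell.

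Of the 20 genes of platelet granules and enzymes, 17 were over 10 reads in at least 50% of the rich cells and 20 in any rich cell. Here too the 16 that could be compared with erythroid-marked cells passed the filter through the 23 cells alone. The highest levels in the 23 cells, beside those in erythroid-marked cells, were those of the adhesive protein *Thbs1* (1822 and 31.3 RPM), the granule transport factor *Rab27b* (1485 and 8.25), *Plek*, a kinase substrate of activated platelets (1182 and 9.83), and *Clu* (735 and 45.8). *Rab27b*, *Thbs1*, *Plek* and *Rgs18* passed 10 reads in all 16 rich cells. *F13a1*, a clotting factor, passed in only 6.

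Genes of red cells were lower against the narrower class, which was itself chosen by reads of *Klf1*, a gene of the list. Of 20 on the list, 16 could be compared, 0 were at least 4 times higher and 9 at least 4 times lower, with a median log2 ratio of -2.59. Against erythroid-marked cells 9 could be compared and 3 of them were lower, but those cells were chosen by reads on this same list. The list members over 10 reads in most rich cells were the haem synthesis genes *Fech* (16 cells, 39 to 996 reads), *Urod* (15, 1 to 1336) and *Alad* (12, 0 to 1035), *Car2*, a carbonic anhydrase (15, 5 to 3855), *Epor*, the erythropoietin receptor (14, 0 to 1138), and *Sptb*, a spectrin of the membrane skeleton (14, 0 to 779). *Aqp1* was at 0 in all 16 rich cells.

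Of 7 globin genes, 5 could be compared with erythroid-marked cells, and 3 of them were lower in the 23 cells. Against the narrower class 4 were lower. The remaining gene called different, the embryonic *Hbb-bh1*, was higher in both comparisons. It passed the filter on low values through the 23 cells alone, so it is not counted as a higher gene here. *Hbb-bh1* stood at 3331 RPM in the 23 cells and at 198.8 RPM in erythroid-marked cells, and without cell 6 (E10.5 bulk), which had 73987 reads of it, at 818 RPM in the remaining 22. The same cell had 11846 *Hbb-bs* reads beside 25435 *Pf4* and 4143 *Itga2b* reads.

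Cell cycle genes were near the level of erythroid-marked cells, with a median log2 ratio of -0.06. Of 17 genes 15 were compared, 0 were higher and 1, *Ccnd2*, was lower, beside 5.22% higher and 1.12% lower over all genes. Against the narrower class the median was -0.50, beside -0.16 over all genes. There 0 of 15 were higher and 0 lower, beside 7.42% and 2.54% over all genes. *Mki67* passed 10 reads in 15 of the 16 rich cells at a median of 332.5 reads, and *Cdk1* in 15. Of the D-type cyclins, *Ccnd3* stood at 97.7 to 1205 RPM in the rich cells, whereas *Ccnd1* had at most 5 reads. Among the beta-tubulins, the widely used *Tubb5* (1063 to 4110 RPM) and *Tubb4b* (143.6 to 1005 RPM) were over 10 reads in all 16 cells, and *Tubb2b* had at most 4 reads. Of the chemokine genes grouped with *Pf4*, *Cxcl5* passed 10 reads in 9 of the rich cells, with up to 1891 reads, and in 3 of the 630 other cells, while *Cxcl1* had at most 2 reads in each rich cell.

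The genes most like the members were found by the correlation of log2(RPM + 1) with the summed members over all cells, among 15245 genes with more than 10 reads in at least 5 cells. Among the highest were *Treml1* (Pearson r 0.60), *Plek* (0.59), the receptor subunit *Fcer1g* (0.59), *Bin2* (0.59), *Itgb3* (0.58), *Slc35d3* (0.58), *Gp5* (0.57), the adaptor *Lat* (0.54) and *Rgs18* (0.54). These are over 10 reads in 16 of 16 rich cells except *Gp5*, which is over 10 in 15. Of these genes, *Slc35d3* passed 10 reads in the fewest other cells, 4 of 630, and *Bin2* in the most, 60.

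A second ranking, by the ratio of the level in the 23 cells to the highest level among erythroid-, leukocyte-, hepatoblast- and mesenchyme-marked cells outside them, ran over 4617 genes other than the 9 members. It was led by *Cc2d2b* (55.9 RPM against 0.111), the thrombin receptor *F2rl3* (208.9 against 0.716), *Treml1* (965 against 4.58) and *Itgb3* (817 against 3.89), followed by *Rab27b*, *Gp5*, *Sla2*, *Alox12*, the ion channel *Trpc6* and the potassium channel *Kcnj5*. Of these 10 genes, *Treml1*, *Itgb3* and *Rab27b* passed 10 reads in all 16 rich cells, and *Kcnj5* in 10. Genes were admitted to this ranking by their reads in the 23 cells alone, so high ratios follow in part from that choice. Endothelial-marked cells were not among the classes compared, although 12 of the 16 rich cells were themselves endothelial-marked. How the ranking would stand against that class was not tested.

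Markers of other lineages in the rich cells are given next, since the sort was meant for hepatoblasts. Of 12 hepatoblast genes 11 had at most 10 reads in every rich cell, with *Alb* at most 7 and *Afp* at most 5, and 0 rich cells were hepatoblast-marked. *Ptprc*, which encodes CD45, had at most 1 read in each, and of 10 leukocyte genes only *Coro1a* (14 cells), *Lyz2* (10) and *Tyrobp* (2) passed 10 reads in any. Mast cell genes had at most 4 reads. Of the stem and progenitor genes, *Cd34* was at 0 in all 16 cells, and *Angpt1* and *Slamf1* passed 10 reads in 10 and 7.

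Endothelial genes were mixed. *Pecam1*, which encodes the CD31 that the sort excluded, passed 10 reads in 11 of the 16 rich cells with up to 464 reads, *Tie1* passed in 13, *Kdr* in 12, *Tek* in 8 and *Eng* in 7, whereas *Egfl7* and *Stab2* were at 0 in all 16 and *Cdh5* and *Emcn* had at most 1 read. By the rule of 3 genes 12 of the 16 rich cells were endothelial-marked. Mesenchyme genes passed in 1 rich cell by that rule, cell 14 (E13.5 Lgr5-GFP+), which had 4192 *Col3a1* reads beside 47616 *Pf4* reads and also 2532 *Hbb-bs* reads. Without the 4 rich cells that had more than 1000 reads of *Col3a1*, *Hbb-bh1* or *Hbb-bs*, 12 remained, of which 10 held *Gata1* without *Klf1*, all 4 Lgr5-GFP+ cells had more than 10 *Ppbp* reads and 0 of 8 bulk cells did.

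By the rule, cells outside the 23 held at most 2 members over 10 reads, and 89 of them held 1 and 30 held 2. *Pf4* passed 100 reads in 18 cells, with a median of 1026.5 reads and up to 2723. Of these 18 cells, 13 were E13.5 Lgr5-GFP+, 10 were leukocyte-marked and 0 had more than 10 *Gata1* reads, and the level of *Pf4* was 449 RPM in leukocyte-marked cells against 35.1 in endothelial-marked and 18.6 in erythroid-marked cells. The *Ppbp* level in leukocyte-marked cells was 1.04 RPM.

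*Itga2b* passed 10 reads in 40 cells outside the 23, of which 18 held both *Gata1* and *Klf1* over 10 reads, at a median of 146.5 reads. *Gp9* passed in 19 cells, 14 of them with both factors, and *Vwf* in 18 cells, 8 of them with both factors and 4 endothelial-marked. *Gp1ba* passed in 5 cells, all erythroid-marked, with at most 85 reads. In the 70 hepatoblast-marked cells, which should lack these genes, *Pf4* had at least 1 read in 32 (45.7%, exact 95% interval 33.7 to 58.1%) and passed 10 reads in 5, whereas *Gp1ba* had a read in 2 and *Gp1bb* in 0 of 70. Their median depth was 1247290 reads and that of the rich cells 1362717.

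Low reads of the 2 chemokines followed the index sequences. Of cells outside the 23 with at most 100 *Pf4* reads, 88.3% of those that shared an index with a Pf4-rich cell of the same pool had at least 1 *Pf4* read (exact 95% interval 81.9 to 93.02%), at a median of 4 and up to 29 reads. A Pf4-rich cell here is a rich cell with more than 1000 *Pf4* reads, of which there were 13. Of cells of the same pools that shared no index with one, 78 of 337 had a *Pf4* read (23.1%, 18.7 to 28.02%), and in pool 1, which held no Pf4-rich cell, 19 cells did (14.6%, 9.03 to 21.9%).

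For *Ppbp* the shares were 54 of 63 (85.7%, 74.6 to 93.3%) for cells sharing an index with 1 of the 5 cells rich in it, 17 of 432 (3.94%, 2.31 to 6.23%) for those sharing none, and 0 cells in pool 1. For *Gp9* the shares were 35.5% (44 cells) against 6.89% (25 of 363), and for *Itga2b* 43.5% (57 cells) against 13.8% (47 of 340). Of the 34 cells with 11 to 100 *Pf4* reads outside the 23, 28 shared an index. When a gene was also asked to exceed 0.5% of the reads of the highest cell sharing an index, an alternative chosen after the data were seen, 20 cells were counted in place of 23. How these reads came about was not tested.

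**Figure D5:**
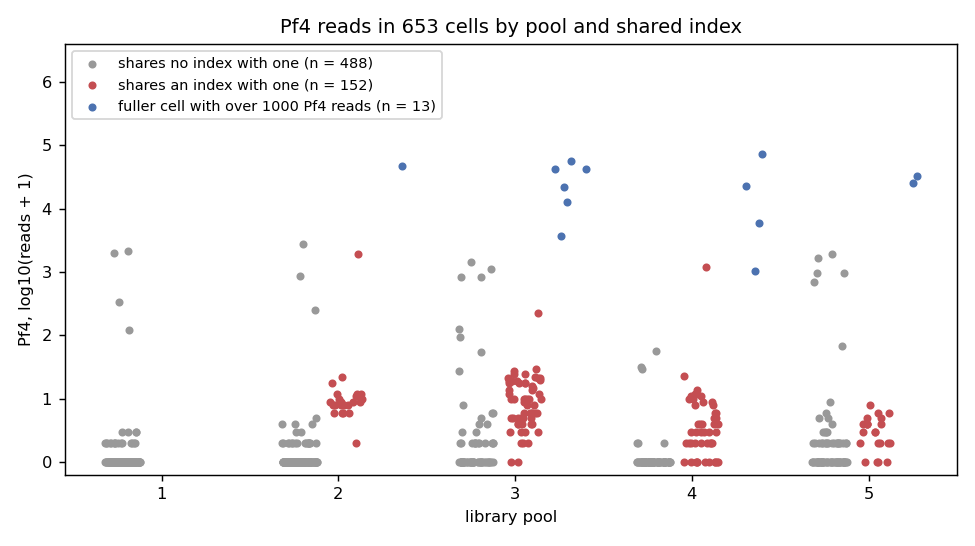
*Pf4* reads of each cell as log10(reads + 1) (vertical) by library pool (horizontal, points spread sideways at random), in blue for the 13 rich cells with more than 1000 *Pf4* reads, in red for the cells that share an index with one of them in the same pool, and in grey for the other 488. Red points lie mostly above grey points in pools 2 to 4, and pool 1 has neither blue nor red points.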

How the data were processed

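Single cells of E10.5 and E13.5 mouse liver were measured with Smart-seq2. Per the methods, the authors aligned 50-base single-end reads to GRCm38 with STAR (2.6.0c), counted the uniquely aligned reads of each Ensembl gene with Subread (1.6.2), and filtered cells. The deposited counts are raw, and reads in exons shared by genes cannot be assigned without doubt. Gene names, positions and exon lengths are from GENCODE on the same build (54042 of 54195 identifiers named). The authors' normalised table was not used, and 0 columns were left unused.

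Levels are reads of a gene summed over cells per 1000000 reads on genes. A class with 0 reads was set to 3 reads in ratios. Intervals are exact binomial or Poisson. Genes had been named by fixed rules (members, list genes, the 10 highest by correlation and by ratio), but the members, lists and rules were chosen with earlier results of these data known. The fold and correlation steps were tested on simulated data. No doublet caller was run. The result for 1 further gene is not reported here. Python 3, numpy, pandas and scipy were used.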

Additional observations from a re-analysis of the deposited data

How the results depend on the processing

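The number of 23 cells (3.52% of all) stayed within 1.5 times under 23 of 26 alternatives, with 18 cells at more than 50 reads and 16 after thinning to 100000 reads. It rose to 18.2% of all cells at more than 0 reads and to 53 cells (8.12%) with at least 2 genes, and fell to 12 (2.31%) without library pool 3. At more than 0 reads, 14.8% of the bulk and 16.1% of the Lgr5-GFP+ cells passed at E10.5, and 16.98% and 35% at E13.5. With at least 2 genes the shares of the bulk and Lgr5-GFP+ cells were 10.3% and 4.27% at E10.5 and 6.92% and 15% at E13.5. Without library pool 3 the bulk share at E10.5 was 3.70% and the Lgr5-GFP+ share at E13.5 4.92%. Without library pools 1 and 2, chosen after the data were seen, the bulk share at E10.5 was 10.8%. The share with *Gata1* but not *Klf1*, 65.2% of the 23, was 26.1% at a limit of 0 reads and 87.5% in the cells with at least 5 genes. The 9 genes took 20168 RPM summed over the 23 cells, 20586 as a mean over cells and 5409 as a median. Against 252 genes (5.22%) at least 4 times higher, 600 (12.4%) were at least 2 times higher and 2.73% at least 8 times. Without the filter on low values, which admits genes of few reads, the number was 2888 (10.9%). The cause of the other changes was not tested. Each pool held cells of every group, so groups can be set side by side within pools, and counts within pools are given. No paired test was made, because the labels name no animal or litter. Thinning to 100000 reads lowered the count of cells from 23 to 16. The limit of 10 reads was kept there, so it was stricter relative to the reads left. With a limit of 10 RPM in place of 10 reads the count was 23. The part of depth in the count of cells was not tested.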
